A study of Mus musculus with 8 samples.

Results

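The E2f genes encode the transcription factors through which mammalian cells switch on the genes of DNA replication as they leave G1. E2f1, E2f2 and E2f3 are the activators, which the retinoblastoma protein and its relatives, the pocket proteins, hold silent until cyclin-dependent kinases release them. E2f4 and E2f5 act mainly as repressors together with pocket proteins, E2f6 represses with Polycomb-type partners, and E2f7 and E2f8 are atypical repressors that bind DNA without a dimer partner. In red cell precursors, which divide quickly and then stop as they mature, E2f2 and E2f4 are known to be needed for normal red cell production. The 8 genes E2f1 to E2f8 were taken by name from the gene tables, where all 8 are listed among 11364 genes. The merged table of ChIP-seq sites was searched for sites whose closest transcription start site (TSS) belongs to an E2f gene, which gave 10 of 5551 sites.

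The study asked what a mutant of KLF1, an erythroid zinc finger activator, binds and transcribes in place of the wild type protein. K1 cells are an immortalised fetal liver line from Klf1-null mice. K1-ER and K1-E339K-ER cells are K1 cells that carry, from a retrovirus with a GFP marker, wild type KLF1 or KLF1-E339K fused to a modified estrogen receptor domain, so that 4-hydroxytamoxifen (4-OHT) moves the fusion into the nucleus. Each transgenic line was sorted for GFP, and the mutant libraries came from clones, so a difference between lines includes differences between clones. The mutant ChIP library and its input came from clone 2A after 3 h in 200 nM 4-OHT, with an antibody to the receptor domain, and the labels describe the ChIP material as pooled replicates. RNA labelled with 4-thiouridine (4sU), which captures new transcripts, was sequenced from 3 K1 libraries and from K1-E339K-ER clones 1B, 2A and 2B, and the labels give 500 µM 4sU for 30 min, while the study's methods state a higher concentration and a longer labelling time. All 3 mutant clones were given 200 nM 4-OHT for this RNA, as were 2 K1 libraries, and the remaining K1 library had the ethanol vehicle. The KLF1-ER libraries belong to earlier work of the same authors and enter here through the authors' mean per site and the authors' mean level per gene, which is the same in the gene tables of both lines.

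The labelled cell type was checked against markers, with the level of each as the authors' mean log2 CPM (reads scaled to library size) over all libraries, less log2 of the gene's length in kb. Of 11 erythroid markers all 11 were listed, and the transcription factor Gata1 (6.68 log2 CPM per kb), the erythropoietin receptor gene Epor (6.09) and Tal1 (5.86) led them. The globin genes Hbb-b1 (3.39) and Hba-a1 (3.09) were lower than these and above the median of all genes, 0.82. Slc4a1, the anion exchanger of red cells, had 1.37, and Alas2, the erythroid enzyme of heme synthesis, had 0.75, below that median. Without division by length, Hbb-b1 (3.87 log2 CPM) and Hba-a1 (3.79) lay below the median of all genes, 5.27, and Alas2 (5.29) lay just above it. None of the 4 lymphoid markers was listed, and of 5 myeloid markers only Mpo (-1.57) and Spi1 (-3.86) were. Of the 4 megakaryocyte markers, Itga2b had 1.25, Gp9 1.08 and Vwf -1.78, and Pf4 was not listed. The fibroblast marker Col1a1 was at -5.66 and Col1a2 was not listed. The Klf1 level of 5.09 log2 CPM per kb is a mean that takes in libraries with a transgene.

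The DNA of 6 E2f sites whose central window holds a match to a KLF1 motif is shown before their values. The central windows of the E2f1 site, the E2f8 site and 1 E2f2 site hold no match and are not shown, nor is that of the E2f2 exon site, which overlaps a UTR. KLF1 reads a G-rich 9-base word, and the study's motifs differ at position 5. The pyrimidine motif was searched as NGGGCGTGG, NGGGCGGGG, NGGGTGTGG and NGGGTGGGG, and the purine motif as NGGGAGTGG, NGGGAGGGG, NGGGGGTGG and NGGGGGGGG, on both strands. The windows below are the 101 bases centred on a site's midpoint, read 5′ to 3′ on the plus strand of NCBIM37 (mm9). Capitals mark every match, so a match on the minus strand appears as its reverse complement. The E2f2 pair lies in intron 1 of E2f2, 5 bp apart, at chr4:135733605-135733705 for the upstream site and chr4:135733970-135734070 for the downstream site. The E2f3 trio lies in intron 1 of E2f3, whose gene runs on the minus strand, at chr13:30076720-30076820, chr13:30076224-30076324 and chr13:30075634-30075734. The E2f4 window, chr8:107824018-107824118, lies in intron 5 of E2f4 but for its opening bases, which are coding.
E2f2 intron 1, upstream site: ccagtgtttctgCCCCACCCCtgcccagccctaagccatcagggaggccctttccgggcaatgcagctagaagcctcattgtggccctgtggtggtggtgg
E2f2 intron 1, downstream site: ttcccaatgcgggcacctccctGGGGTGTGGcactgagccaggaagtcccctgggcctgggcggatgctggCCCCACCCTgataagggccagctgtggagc
E2f3 intron 1, site nearest the start: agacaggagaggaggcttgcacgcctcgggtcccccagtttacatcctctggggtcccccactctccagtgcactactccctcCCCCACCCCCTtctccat
E2f3 intron 1, middle site: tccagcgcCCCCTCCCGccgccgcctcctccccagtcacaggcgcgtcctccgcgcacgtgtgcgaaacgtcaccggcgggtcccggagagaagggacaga
E2f3 intron 1, far site: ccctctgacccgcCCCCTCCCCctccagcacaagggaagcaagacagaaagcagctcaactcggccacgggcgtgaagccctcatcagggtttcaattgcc
E2f4 intron 5: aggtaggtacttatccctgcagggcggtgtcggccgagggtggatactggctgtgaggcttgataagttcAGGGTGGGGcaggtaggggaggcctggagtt

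In the windows of the E2f2 pair and of E2f4 every match is a pyrimidine match with T at position 5. The middle and far E2f3 windows hold a purine match each, with A at position 5 on the minus strand. In the E2f3 window nearest the start, a pyrimidine match and a purine match overlap within 1 run of capitals. These are matches of letters, and they do not show which bases a protein contacted.

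Binding is given as a concentration, the authors' log2 of the mean normalised read count of a site, as 1 mean for KLF1-ER and 1 for KLF1-E339K-ER. A site is called higher for a protein here where its concentration is at least 1 log2 unit, or 2-fold, above the other's. No value per library is given for a site, so no replicate error or depth can be given here, and no test was run. The authors' own test of each site was not used, and the counts below describe their means. Of the 10 E2f sites, 4 were higher for KLF1-E339K-ER, beside 61.5% of all sites. Another 2 were higher for KLF1-ER, beside 28.7% of all sites. The remaining 4 lay within 2-fold, beside 9.84% of all sites. At 4-fold, 4 E2f sites were higher for KLF1-E339K-ER (55.3% of all sites) and 1 for KLF1-ER (23.3% of all sites). The median of the mutant minus the wild type concentration was 0.86 over the E2f sites and 2.60 over all sites. For KLF1-ER the median concentration was 4.85 over the E2f sites and 2.82 over all sites, and for KLF1-E339K-ER it was 5.99 and 4.86. A concentration of at least 5 for both proteins was reached at 4 E2f sites, which are 3 of E2f2 and 1 of E2f3, and at 6.40% of all sites, a threshold applied here after the values were seen. With 10 sites from 5 genes, several of them neighbours in 1 intron, these shares are not a property of the family.

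**Figure D1:**
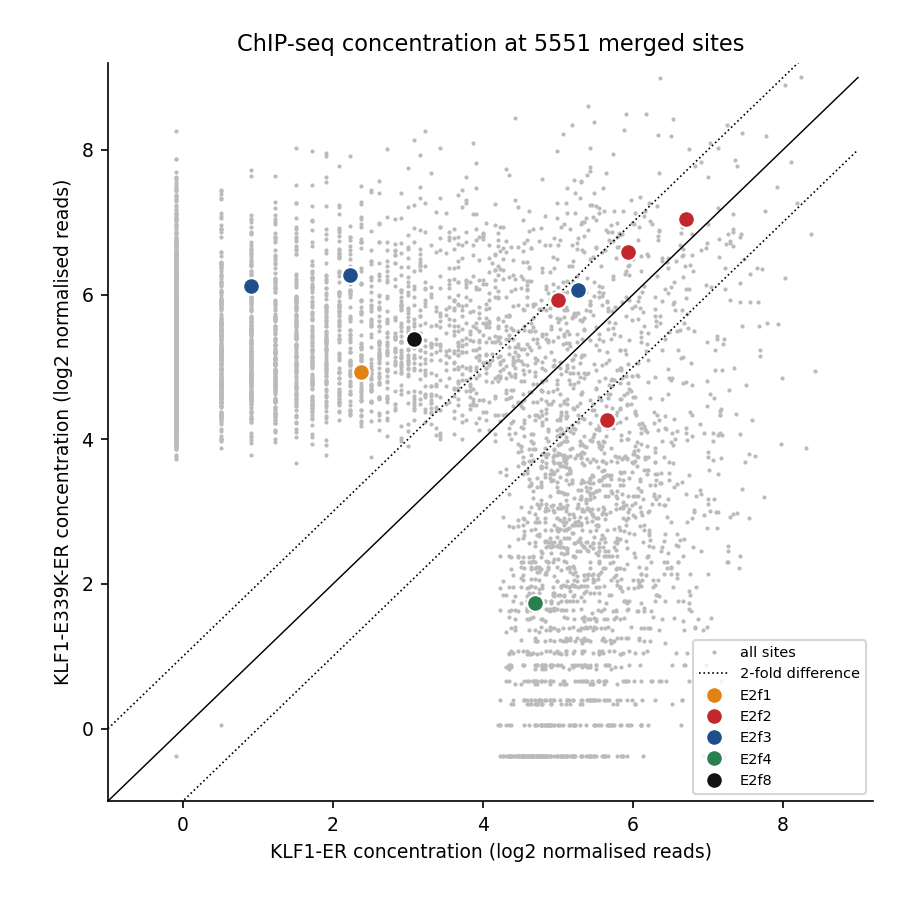
Concentration of KLF1-ER (x axis) and KLF1-E339K-ER (y axis) at all 5551 merged sites in log2 normalised reads, with the 10 E2f sites in colour by gene, the line of equal values and dotted lines at a 2-fold difference. Of the 4 E2f2 sites 3 lie between the dotted lines, 2 of the 3 E2f3 sites lie far to the upper left, and E2f4 lies below them at 4.69 and 1.74.

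E2f2, the activator most tied to erythroid cells, had 4 sites, all inside the gene on the plus strand of chromosome 4. Only 4.60% of the 3670 genes with a site had at least 4. The strongest E2f site in the table for either protein was the downstream site of the intron pair, at 135733847 to 135734193, 5711 bp downstream of the TSS. It had a concentration of 6.70 for KLF1-ER, rank 168 of all sites, and 7.04 for KLF1-E339K-ER, rank 179. The adjoining upstream site, 135733469 to 135733841, was the E2f2 site at which the proteins differed by more than 2-fold. It had 5.65 for KLF1-ER and 4.27 for KLF1-E339K-ER, a 2.60-fold higher wild type value. So within 725 bp of intron DNA, a site of like wild type and mutant concentration stood next to a site at which the wild type was higher.

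The other E2f2 sites flank the pair. The site at 135730584 to 135731057, 2511.5 bp downstream of the TSS and also in intron 1, had 5.93 for KLF1-ER and 6.59 for KLF1-E339K-ER. Its central 101 bases held neither motif, although matches of both kinds lay 80 to 87 bp from its midpoint. The site at 135736944 to 135737565 had 5.00 and 5.93 in the same order. Its midpoint lies in exon 4 of the full-length transcript, in coding sequence, and 533.5 bp downstream of the annotated start of a shorter coding transcript at 135736721, whose 5′ UTR overlaps the site. Summed on the linear scale over the 4 sites, which cover 1816 bp, E2f2 had 247 normalised reads for KLF1-ER and 308 for KLF1-E339K-ER, or a mean of 61.8 and 77.0 per site. Among the 3670 genes with a site this sum ranked 30 for KLF1-ER and 72 for KLF1-E339K-ER. Such a sum grows with the number of sites.

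The sites whose concentrations for both proteins were nearest to those of the strongest E2f2 site lay at other genes. Their like values follow from how they were chosen. The nearest was at Col4a3bp, 66 bp from its TSS, with 6.65 for KLF1-ER and 6.93 for KLF1-E339K-ER, a Euclidean distance of 0.121 log2 units. Sites at Arhgap23 (6.64 and 6.85) and Hivep2 (6.78 and 6.83) followed. This likeness rests on 2 values per site.

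**Figure D2:**
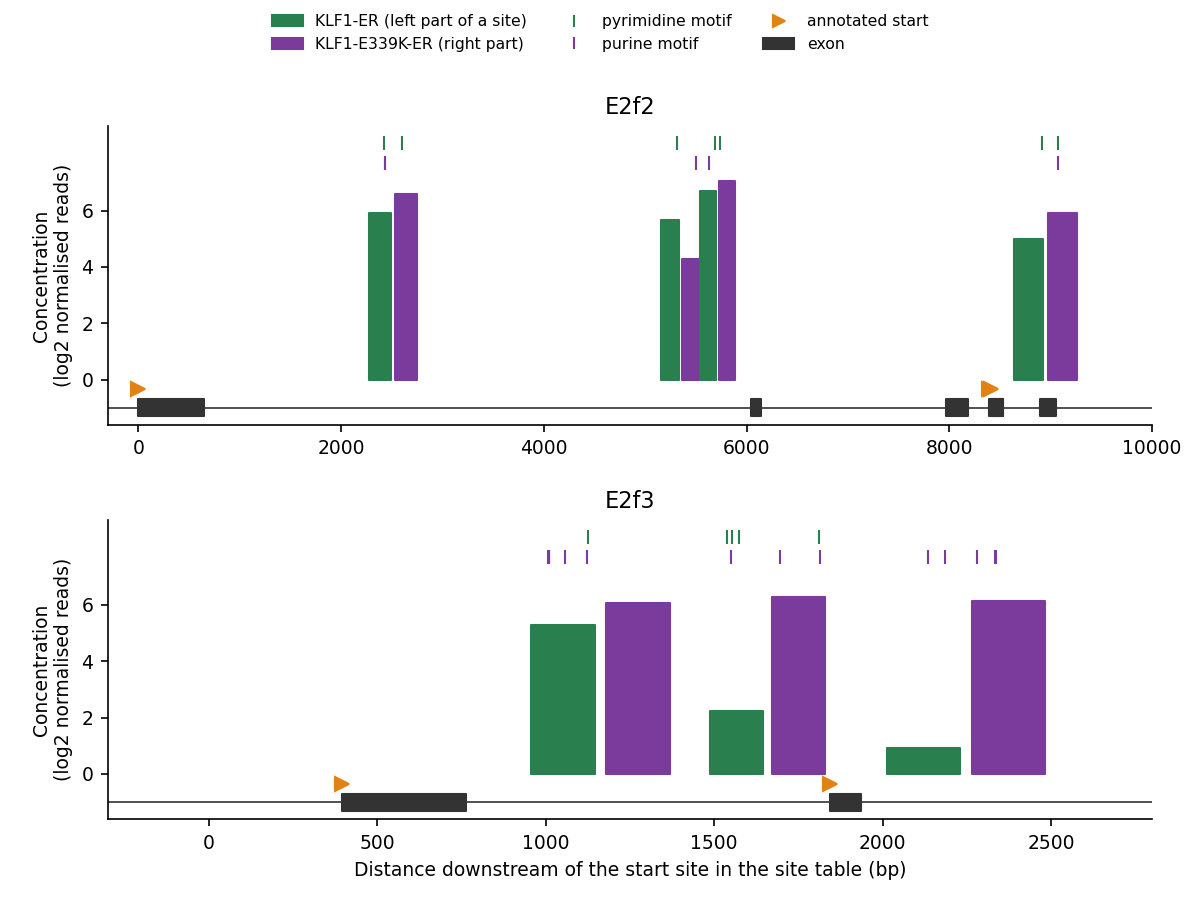
Sites of E2f2 (top) and E2f3 (bottom) by distance downstream of the TSS in the site table, with exons in black, annotated starts as orange arrowheads, and motif matches as ticks (pyrimidine above, purine below). Each site is drawn to width, with its KLF1-ER concentration as the height of the left part and its KLF1-E339K-ER concentration as that of the right part (log2 normalised reads). The mutant bars of the E2f3 trio are near 6 throughout, while the wild type bars go from 5.27 to 0.91.

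E2f3, the third activator, showed another arrangement. Its 3 sites lie in 1 cluster in intron 1, with gaps of 118 and 182 bp, and the KLF1-E339K-ER concentration was nearly level across them at 6.06, 6.27 and 6.12. The KLF1-ER concentration was 5.27 at the site nearest the start, 2.23 at the middle site and 0.91 at the far site. The mutant was thus 1.73-fold, 16.4-fold and 37.0-fold higher. The last of these ratios rests on a wild type mean of 1.88 normalised reads, and the 16.4-fold ratio on 4.69. The mean of 1.88 is close to the lowest KLF1-ER concentration, -0.09 on the log2 scale, which 1424 sites share. The cluster surrounds a second annotated start of a coding E2f3 transcript at 30076088. The middle site, 30076103 to 30076445, has its midpoint 186 bp upstream of that start, and the far site, 30075449 to 30075920, has its midpoint 403.5 bp downstream of it. The site nearest the start, 30076564 to 30076977, lies 682.5 bp upstream. E2f3 is known to make a long and a short protein from such separate starts. The site table measures from a start 395 bp upstream of the annotated full-length start, from which the midpoints are 1161.5, 1658 and 2247.5 bp downstream. Over the whole sites, the far site held 5 purine and no pyrimidine matches, the middle site 3 and 4, and the site nearest the start 6 and 1. Overlapping matches were counted separately. At the site nearest the start, the purine matches 152, 153, 154 and 155 bp from the midpoint share the same run of G.

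E2f1, the activator that is also known for driving cell death when in excess, had 1 site, and it was the E2f site outside the transcribed part of its gene. It covers 154409582 to 154410053 of chromosome 2, between genes and 14229.5 bp upstream of the TSS. The concentration was 2.37 for KLF1-ER and 4.93 for KLF1-E339K-ER, 5.90-fold higher for the mutant. Its central window held neither motif, and a purine match lay 89 bp from the midpoint.

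E2f4, the main E2f repressor of resting cells, had the opposite pattern. Its site on chromosome 8, from 107823894 to 107824242, lies 2505 bp downstream of the TSS. The site overlaps coding exons on either side of intron 5, an intron of 199 bp that holds its midpoint. The concentration was 4.69 for KLF1-ER and 1.74 for KLF1-E339K-ER, 7.73-fold higher for the wild type. The pyrimidine match in its window is the only match to either motif over the whole site. E2f5 and E2f6, the other repressors of the classical kind, were the closest TSS of no site.

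E2f8, an atypical repressor that is known to act with the retinoblastoma protein in red cell production, had a site at its promoter. The site on chromosome 7, from 56136269 to 56136912, has its midpoint 179.5 bp upstream of the TSS used by the site table, and that midpoint lies in intron 1, of 1006 bp, of a transcript that starts 555 bp further upstream. It also overlaps the 5′ UTR of E2f8 transcripts and Gm2788, a long non-coding RNA gene on the other strand. The concentration was 3.08 for KLF1-ER and 5.38 for KLF1-E339K-ER, 4.92-fold higher for the mutant. Matches to the purine and the pyrimidine motif lay 55 and 61 bp from the midpoint, so the central window held neither.

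E2f7, the other atypical repressor, was the closest TSS of no site. Thus 5 of the 8 E2f genes were the closest TSS of a site, beside 26.6% of all listed genes.

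Within 50 bp of the midpoint, the pyrimidine motif was found at 5 of the 10 E2f sites and at 35.3% of all sites. The purine motif was found at 3 E2f sites and at 35.5% of all sites. Both were found at 1 E2f site (13.0% of all sites), and neither at 3 (42.2%). Both E2f sites that were higher for KLF1-ER, at E2f2 and E2f4, held the pyrimidine and not the purine motif. Over all sites higher for KLF1-ER, 60.7% held the pyrimidine and 16.0% the purine motif. Of the 4 E2f sites higher for KLF1-E339K-ER, the 2 of E2f3 held the purine motif, and those of E2f1 and E2f8 held neither. Over all sites higher for KLF1-E339K-ER, 45.8% held the purine and 22.8% the pyrimidine motif. Of the 4 E2f sites within 2-fold, 3 held the pyrimidine motif and 1 of these the purine motif as well. Over all sites within 2-fold, 39.2% held the pyrimidine motif, 28.6% the purine motif and 15.2% both. The counts depend on the window, since within 100 bp 8 E2f sites held the pyrimidine and 7 the purine motif, beside 47.2% and 48.2% of all sites.

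The E2f genes also differed in how much new RNA they made. The level is the authors' mean log2 CPM over all libraries of their fit, so it joins K1 and induced cells and says nothing of a difference between them. No spread between libraries is given with it, so whether neighbours in the order differ cannot be said. To compare genes, log2 of the gene's length in kb was subtracted, where the length is the gene's span with its introns. Per kb of span, E2f4 was highest at 4.12 log2 CPM per kb, in the top 6.73% of all genes, and E2f2 (3.94), E2f1 (3.93) and E2f8 (3.21) followed. These 4 lay above the upper quartile of all genes, 2.26. Whether reads of Gm2788 were kept apart from those of E2f8 by strand is not given in the sources used here. E2f3 had 1.77, E2f6 1.10 and E2f5 0.73 beside a median of 0.82 for all genes. Per kb of exon, E2f2 led with 6.22 and E2f4 had 6.07. By span, E2f7 was lowest at -0.86, a level 4.98 log2 units below E2f4 and close to the lower quartile, -0.87. In all, 6 of the 8 genes lay above the median of all genes per kb.

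Without division by length, which favours long genes, the mean of E2f2 was 8.51 log2 CPM, rank 329 of 11364 genes. That of E2f3 was 8.08, from a span of 79489 bp against 23663 bp for E2f2, which sets it lower in the order per kb. E2f1 had 7.28, E2f8 7.08 and E2f4 7.07. E2f5 had 5.52, E2f6 5.09 and E2f7 4.52. The 5 genes with a site were thus the 5 with the highest level per kb, and the 3 genes without a site had the 3 lowest, and the same holds without division by length. It does not hold per kb of exon, where E2f5 (4.72), which has no site, lay above E2f8 (4.64). Levels of all listed genes with and without a site were not compared. So this order cannot be called particular to the E2f genes, and its cause was not tested.

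**Figure D3:**
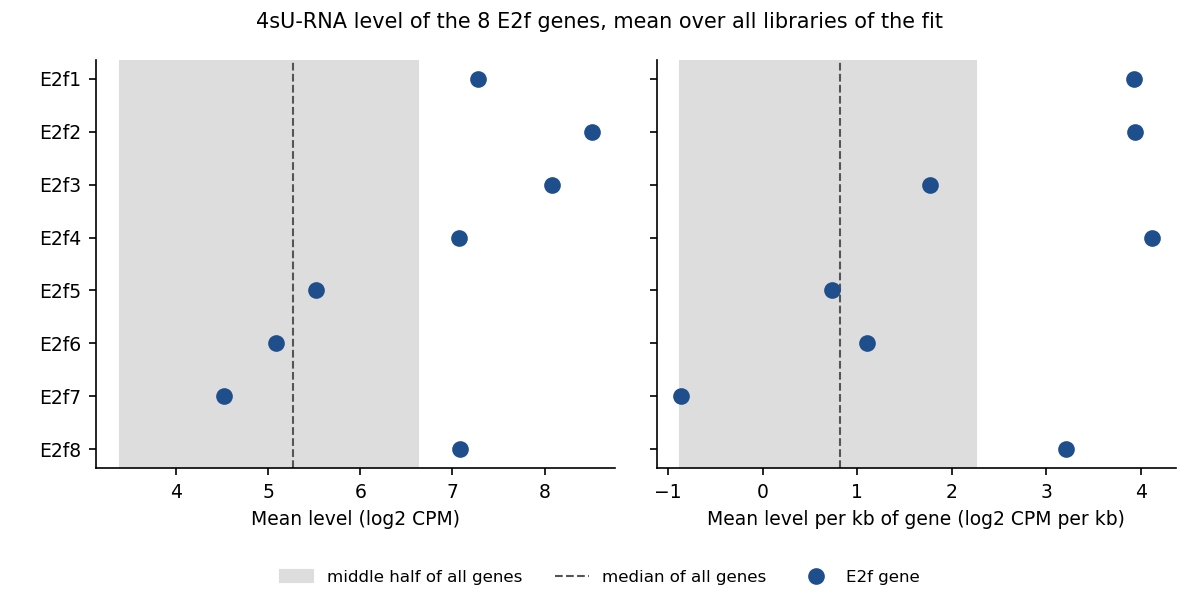
Mean 4sU-RNA level of each E2f gene over all libraries of the authors' fit, in log2 CPM (left) and log2 CPM per kb of gene span (right), with the median (dashed line) and the middle part between the quartiles (grey) of all 11364 genes. E2f4, E2f2, E2f1 and E2f8 lie right of the grey band per kb, and E2f7 lies at its left edge at -0.86.

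The partners of the E2f proteins were looked at next. Tfdp1 and Tfdp2, which encode the dimer partners of E2f1 to E2f6, had 3.23 and 0.25 log2 CPM per kb, and neither was the closest TSS of a site. Of the 3 pocket protein genes, Rb1 and Rbl1 had a site each, beside 26.6% of all listed genes with a site. Both sites were higher for KLF1-ER, beside 28.7% of all sites. The Rb1 site, 385.5 bp from the TSS, had 5.57 for KLF1-ER and 2.16 for KLF1-E339K-ER. The Rbl1 site, 415 bp from the TSS, had 4.98 and 0.88. None of the 3 pocket protein genes lay above the median level per kb, with Rbl1 highest at 0.81 and Rb1 lowest at -1.04.

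The MuvB genes and their partners encode the complex that represses cell cycle genes in resting cells and activates them in G2. Of these 7 genes 2 had a site, close to the share of 26.6% of all listed genes. These were Mybl2 and Lin54, each with its site at the promoter. The Mybl2 site, 88.5 bp from the TSS, had 4.82 for KLF1-ER and 2.58 for KLF1-E339K-ER. The Lin54 site, 121.5 bp from the TSS, had 5.10 and 3.67. Both of these sites were higher for KLF1-ER, beside the 28.7% of all sites given above. Foxm1 had the highest level of this list at 3.06 log2 CPM per kb and Lin52 the lowest at -1.10.

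Of the 7 genes of the E2f6 repressor complex 3 had a site, beside 26.6% of all listed genes. These genes, Max, Mga and Rybp, had 5 sites, 4 of them higher for KLF1-E339K-ER, beside 61.5% of all sites. Max, the shared partner of the Myc and Mga proteins, had 3 of these. At the Max site 191 bp from the TSS the concentration was 0.50 for KLF1-ER and 5.04 for KLF1-E339K-ER. Rybp had 2.61 and 4.88 at 1040.5 bp from its TSS. Mga, at 94.5 bp from its TSS, was the exception with 4.84 and 3.61. Max had the highest level of the list at 2.57 log2 CPM per kb and Rnf2 the lowest at 0.67.

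The list of S phase genes holds mainly genes that E2F proteins are known to switch on. Of the 25 genes on this list 22 lay above the median of all genes per kb, with a list median of 2.98. The list also holds Tk2 (0.32), the mitochondrial thymidine kinase gene, which is not known as an S phase gene and lay below the median of all genes. Tk2 was not alone in this, since Pola1 (0.10) lay lower still. Cdt1, which loads the replicative helicase at origins, was highest at 6.46 log2 CPM per kb. Of the 25 genes 5 had a site, beside the 26.6% of all listed genes, with 4 sites higher for KLF1-E339K-ER and 3 for KLF1-ER (61.5% and 28.7% of all sites). The Cdt1 site, 145.5 bp from the TSS, had 2.72 for KLF1-ER and 6.20 for KLF1-E339K-ER. Ccne2, a cyclin E gene, had 2 sites higher for the mutant, and the one 12.5 bp from the TSS had 1.91 and 5.63. Ccne1, the other cyclin E gene, had a site of each kind less than 1 kb apart and over 21 kb from its TSS, with 5.10 and 1.64 at one and -0.09 and 5.34 at the other. Tk1, thymidine kinase, had 4.95 and 1.64, and Cdca7 had 5.39 and 0.39 at a site 77717 bp away.

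Upstream of the E2f proteins, 4 of the 7 listed G1 regulators had a site, beside 26.6% of all listed genes. These genes, Ccnd3, Cdk4, Cdkn1a and Cdkn2c, had 13 sites between them. Of the 13 sites, 8 were higher for KLF1-E339K-ER, 3 for KLF1-ER and 2 within 2-fold, beside 61.5%, 28.7% and 9.84% of all sites. Ccnd3, the D-type cyclin of red cell precursors, held 8 of the 13 sites. Cdk4 had 5.12 for KLF1-ER and 5.25 for KLF1-E339K-ER at 173 bp from its TSS. Cdk4 had the highest level of the 7 listed genes at 4.85 log2 CPM per kb and Ccnd2 the lowest at -5.74. Ccnd1, Cdk6, Cdkn2a and Cdkn2d were not listed in the gene tables.

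**Figure D4:**
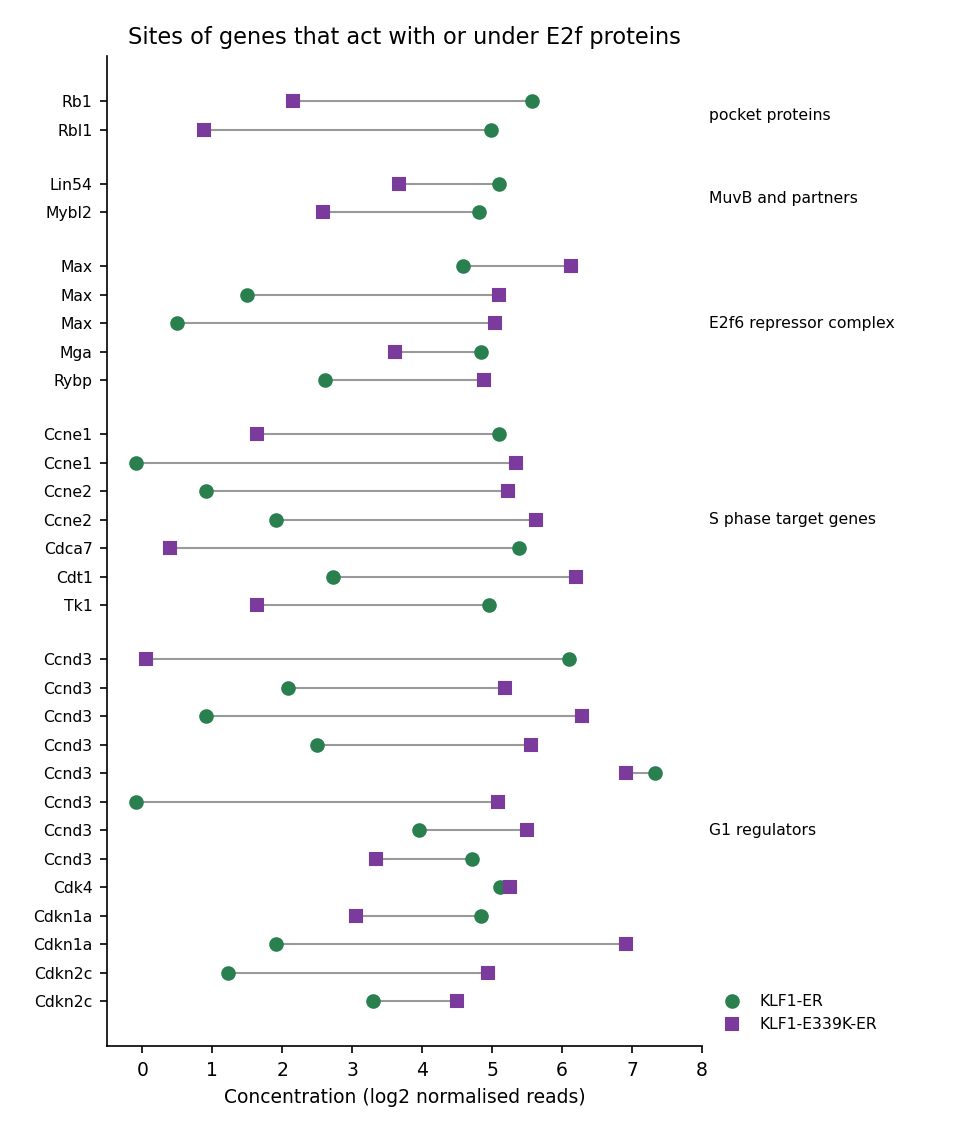
KLF1-ER (green circles) and KLF1-E339K-ER (purple squares) concentration, in log2 normalised reads, at every site whose closest TSS is a gene of the lists named at the right, 1 row per site. Both rows of pocket protein genes and both rows of MuvB genes have the circle to the right, as have 28.7% of all sites by at least 2-fold. Of the 5 rows of the E2f6 repressor complex, 4 have the square to the right, as have 61.5% of all sites by at least 2-fold.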

How the data were processed

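The E2f genes and the gene lists were chosen with earlier results of these data known. Per the labels and the study's methods, reads were mapped to mm9 (TopHat2 2.0.10 is named in the submitters' processing notes), genes were fitted with limma-voom and sites were compared with DiffBind. The authors deposited log2 values, namely the mean log2 CPM per gene and the log2 concentration per site and protein, with lengths, positions and distances in bp. The gene tables also hold the authors' log2 fold changes, t and p-values of each line against K1, and the site table their fold, p-value and FDR between proteins. Those columns of comparisons were not used. No count or value per library is in these tables, so the depth is unknown, no sample could be left out and no test was run.

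Both gene tables were joined on Entrez identifier, length and mean level, and all 11364 genes matched, of which 779 had a different symbol in each table. The length was within 10% of the annotated span for 84.9% of the 9961 genes that matched 1 annotated gene by symbol. Sites were set on NCBIM37, the assembly behind mm9, with GENCODE M1 genes, and all 5551 lay within their chromosomes. A positive distance is downstream on the gene's strand. Python 3.11.15, pandas 2.3.3 and numpy 2.4.6 were used, and the motif search was tested on simulated sequences.

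Every E2f gene and every site closest to one is named. For the E2f site with the highest concentration of each protein, the 3 sites with the smallest Euclidean distance in both concentrations are named. Of each list, the genes with a site and the highest and lowest level are named, except for 1 gene that is not reported here. The alternatives were a 4-fold difference, a higher concentration of at least 5, sites within 10 kb, TSS of the annotation, any site within 100 kb, wider motif windows, no division by length, exon length, and genes of at least 0 log2 CPM.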

Additional observations from a re-analysis of the deposited data

How the results depend on the processing

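Of 21 alternatives over 6 counts, 15 stayed within 1.5 times the reported count and 6 did not. The E2f sites higher for KLF1-ER went from 2 to 1 at a 4-fold difference, which leaves E2f4, and to 1 where the higher concentration had to be at least 5, which leaves E2f2. The sites with the pyrimidine motif went from 5 to 8 within 100 bp and to 8 over the whole site, and those with the purine motif from 3 to 7 and to 9, as a longer window holds more matches. Over the whole site, 58.6% of all sites held the pyrimidine and 58.4% the purine motif. By the closest TSS of the annotation, the E2f8 site falls to Gm2788, and 2 sites given to Nav2 fall to E2f8, which makes 3 sites higher for KLF1-ER and 4 for KLF1-E339K-ER. With coding transcripts alone, an alternative added after the data were seen, the E2f8 site stays with E2f8. Exon length, which was available for 10043 of the 11364 genes, put 7 of the 8 genes above the median in place of 6. No paired analysis was possible because no result comes from a test and the tables hold no value per library. The wild type concentrations come from libraries made and sequenced in earlier work, so protein, clone and sequencing run cannot be told apart at any site.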

Other observations

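Another 9 sites lay within 100 kb of a start of an E2f gene but were given to the TSS of another gene in the site table. Of these, 7 were higher for KLF1-ER and 2 for KLF1-E339K-ER, beside 28.7% and 61.5% of all sites. Around E2f4, 4 such sites were all higher for KLF1-ER, as was the site within E2f4. They belong to Fbxl8 (6.19 for KLF1-ER and 1.08 for KLF1-E339K-ER), 4931428F04Rik (5.50 and 1.51), Slc9a5 (5.29 and 0.34) and Hsf4 (4.95 and 1.21). The nearest, at 4931428F04Rik, lies 8.45 kb from the E2f4 start. Around E2f2, the sites of Id3 (5.20 and 2.39) and Asap3 (5.67 and 3.51) were higher for KLF1-ER, unlike 3 of the 4 sites inside E2f2.

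Around E2f1, the site of Necab3, 12.3 kb from the nearest E2f1 start, had -0.09 for KLF1-ER and 4.30 for KLF1-E339K-ER. That of Zfp341, 62.8 kb away, had 4.95 and 2.11. Around E2f8, the Nav2 site 49.5 kb away had -0.09 and 4.48, and in the annotation E2f8 is its closest TSS. So it is for another Nav2 site, beyond 100 kb, which had 4.89 for KLF1-ER and 0.66 for KLF1-E339K-ER. No site lay within 100 kb of a start of E2f5, E2f6 or E2f7, nor did E2f3 have any beyond its own 3.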
